A study of Mus musculus with 24 samples.

Results

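Amino acid transporters carry amino acids across the plasma membrane and the lysosomal membrane. The genes described here are those of the solute carrier families Slc1, Slc7, Slc36, Slc38 and Slc43, taken by mouse gene symbol, together with Slc3a2, which encodes the heavy chain of several Slc7 transporters. The symbols gave 43 of the 24346 features in the count files, without use of any measured value. 41 are transporter genes by name, and 2 (Slc7a6os and Slc36a1os) are opposite-strand genes that share the spelling. 26 of the 43 passed the filter on low counts and were tested, Slc7a6os among them, and 17 did not.

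The cells were mouse 3T3-L1, a fibroblast-like preadipocyte line that becomes fat-laden after hormonal induction. The 12 RNA-seq libraries came from 4 groups of 3 replicates: cells with the genotype label LSD1 overexpression at day 7, control cells at day 7, LSD1-labelled cells at day 0 and control cells at day 0. Day 0 was the confluent, uninduced state. All day 7 cells had received the same mixture of 500 µM isobutylmethylxanthine, 10 µM rosiglitazone, 1 µM dexamethasone and 10 µg/ml insulin, followed from day 3 by medium with insulin alone. The growth medium of all groups contained serum and glutamine. LSD1, encoded by Kdm1a, is a histone demethylase, and the series asks how it acts in the formation of beige fat cells. The labels call the replicates biological but do not say that they came from separately derived lines, nor do they give the construct or promoter used. An effect of the label and another difference between the cell lines therefore cannot be told apart, and p-values measure the spread between these libraries. In addition, 6 peak lists from chromatin immunoprecipitation (ChIP-seq), each from 1 sample, covered LSD1 in both cell types at both days and Nrf1, a transcription factor of mitochondrial genes, at both days. The title and the genotype label of the day 7 Nrf1 sample disagree, so the Nrf1 lists are given by day only.

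By way of background, Slc7 proteins known as light chains work as pairs with the heavy chain 4F2hc, the product of Slc3a2. The pair with LAT1 (Slc7a5) brings large neutral amino acids such as leucine into the cell in exchange for others, often glutamine, and the pair with xCT (Slc7a11) brings in cystine, the precursor used for glutathione, in exchange for glutamate. ASCT2 (Slc1a5) and the Slc38 proteins of the SNAT group move glutamine and other small neutral amino acids, and CAT1 (Slc7a1) carries arginine and lysine. Fat cells use amino acids for lipid synthesis, and leucine and arginine are read by the kinase complex mTORC1. Several of these transporter genes are known targets of ATF4, the transcription factor that is made when amino acids are scarce.

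Promoters of 4 of the genes are shown because an LSD1 peak covered each window in at least 1 list and because each holds a short motif tied to amino acid or oxidative stress control. The promoter of Slc7a6 also met both conditions and is not shown. Sequences are from RefSeq on GRCm38.p6, minus strand, from 250 bases before to 50 bases after the annotated start, with motif matches in capitals. In Slc7a11 (chr3:50443564-50443863) and Slc1a4 (chr11:20332664-20332963) the capitals mark TGATGNAA on either strand, the form bound by C/EBP and ATF factors, and in Slc38a2 (chr15:96699679-96699978) and Slc7a1 (chr5:148399855-148400154) they mark TGACNNNGC on either strand, the core of the antioxidant response element.
Slc7a11: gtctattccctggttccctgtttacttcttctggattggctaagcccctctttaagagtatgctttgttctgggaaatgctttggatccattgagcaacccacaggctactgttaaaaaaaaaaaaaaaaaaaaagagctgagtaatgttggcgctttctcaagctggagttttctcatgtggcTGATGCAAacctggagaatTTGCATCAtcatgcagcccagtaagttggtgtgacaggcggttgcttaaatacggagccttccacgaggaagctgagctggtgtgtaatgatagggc
Slc1a4: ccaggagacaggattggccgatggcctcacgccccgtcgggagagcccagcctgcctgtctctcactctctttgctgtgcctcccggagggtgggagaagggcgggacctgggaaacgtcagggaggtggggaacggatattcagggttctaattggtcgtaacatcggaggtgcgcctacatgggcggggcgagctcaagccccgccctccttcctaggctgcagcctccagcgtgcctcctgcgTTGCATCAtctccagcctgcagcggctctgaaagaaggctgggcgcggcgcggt
Slc38a2: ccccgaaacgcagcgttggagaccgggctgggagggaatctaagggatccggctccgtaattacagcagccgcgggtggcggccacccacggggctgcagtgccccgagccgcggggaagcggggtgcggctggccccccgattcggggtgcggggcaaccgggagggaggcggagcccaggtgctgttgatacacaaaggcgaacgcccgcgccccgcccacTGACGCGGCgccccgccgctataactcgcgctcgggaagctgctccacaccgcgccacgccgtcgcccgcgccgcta
Slc7a1: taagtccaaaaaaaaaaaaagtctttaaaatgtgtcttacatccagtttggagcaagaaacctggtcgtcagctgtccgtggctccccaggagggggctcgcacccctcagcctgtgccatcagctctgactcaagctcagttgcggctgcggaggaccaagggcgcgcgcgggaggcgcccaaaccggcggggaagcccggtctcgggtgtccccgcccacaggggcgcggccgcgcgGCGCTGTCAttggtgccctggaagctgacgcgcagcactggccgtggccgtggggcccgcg
The Slc7a11 window holds 2 copies of TGATGNAA, on opposite strands, 66 and 47 bases before the start. Over 43 windows of the 32 genes of the 43 that are in the promoter table, Slc7a6os and Slc36a1os included, TGATGNAA was found in 4 (9.30%), against 3.97% of all 32851 windows of that length, in Slc1a4, Slc7a11 and Slc7a7. TGACNNNGC was found in 7 windows (16.3%), against 12.4% of all windows, in Slc36a1, Slc36a1os, Slc38a2, Slc43a1, Slc7a1 and Slc7a6. Some windows of 1 gene overlap: 2 windows of Slc7a7 share 1 TGATGNAA match and 2 windows of Slc7a6 share 1 TGACNNNGC match, which the window counts include 2 times. The palindromic Nrf1 motif was found in 1 window (2.33%), that of Slc7a10, against 4.60% of all windows. These are letter matches and not binding sites, and the motifs were searched on both strands without regard to overlap between them.

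The libraries held 27512273 to 37565527 counts over all transcripts. Levels are given in CPM, counts scaled to the TMM-adjusted library size. Replicate 1 of the LSD1-labelled day 0 group stood apart from its group, with Pearson correlations over genes of 0.955 and 0.957 with its other two replicates, which had 0.993 with each other, against 0.988 to 0.992 within the other groups. For single transporter genes, results that rest on that group are therefore given with and without this library where leaving it out changed the call or moved a called log2 value by over 1.5 times. Kdm1a, the gene named by the label, stood at 54.34, 55.42 and 54.40 CPM in LSD1-labelled cells at day 7, against 66.05, 67.60 and 74.51 CPM in control, and at 89.44, 104.2 and 99.01 CPM in LSD1-labelled cells at day 0, against 78.98, 86.31 and 84.10 CPM in control. It was lower in the labelled cells at day 7 (log2 fold change −0.34, SE 0.097, adjusted p = 0.00751, edgeR) and did not pass at day 0 (0.23, adjusted p = 0.0969, edgeR), so "LSD1-labelled" names the label and not a measured overexpression of the counted transcript.

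The summed level of 10 adipocyte markers was 31700 to 37800 CPM in LSD1-labelled cells at day 7 and 10600 to 12400 CPM in control cells at day 7, and at day 0 it was 522 to 637 CPM in LSD1-labelled cells and 689 to 867 CPM in control cells. Lep was the marker at 0 counts in all groups but control cells at day 7. The 8 preadipocyte and fibroblast markers, all detected in every group, summed to 1530 to 1660 CPM in LSD1-labelled cells and 9910 to 10300 CPM in control cells at day 7, and to 20200 to 21200 CPM in LSD1-labelled cells and 38900 to 41300 CPM in control cells at day 0. Sums at day 7 were at most 15.9 CPM for 5 macrophage genes, 44.1 CPM for 5 muscle genes, 1.21 CPM for 4 endothelial genes, 1.92 CPM for 4 genes of neurons and glia, and 129 CPM for 6 of bone or cartilage. Adgre1 (macrophage), Myod1 and Myog (muscle), Rbfox3 and Aqp4 (neuron or glia) and Acan (cartilage) had 0 counts in every group, and Sox9 averaged 25.1 CPM in LSD1-labelled and 117.5 CPM in control cells at day 7. Because the libraries are bulk RNA, fewer cells of a type and less RNA per cell cannot be told apart, and the part of these marker differences in the transporter results was not tested.

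The summed level of the 43 genes was highest in LSD1-labelled cells at day 7, with 3561, 3801 and 4026 CPM, against 1870, 1941 and 1810 CPM in control cells at day 7. In LSD1-labelled cells at day 0 it was 1987, 3154 and 3039 CPM, against 1980, 1959 and 2050 CPM in control cells at day 0. The 3 labelled libraries at day 7 lay above all the others, and replicate 1 of the labelled day 0 group lay among the day 0 controls. Levels can be compared between genes only per transcript length, so CPM per kilobase (RPKM) was used for their order. By that measure Slc1a5 led in LSD1-labelled cells at day 7 with 531.0 ± 52.7 RPKM (SD, n = 3), 43.6% of the sum over the tested genes, followed by Slc3a2 (251.8 ± 11.5), Slc7a5 (121.6 ± 15.1) and Slc38a2 (77.9 ± 7.56). In control cells at day 7 Slc1a5 (105.9 ± 5.15) and Slc3a2 (95.5 ± 11.1) were within their spread of each other, and Slc38a2 (55.8 ± 3.23) and Slc43a3 (47.0 ± 5.51) came next. In LSD1-labelled cells at day 0 the order was Slc3a2 (191.7 ± 70.8), Slc38a2 (113.2 ± 9.78), Slc1a5 (93.9 ± 35.8) and Slc7a5 (92.9 ± 52.2), neighbours that did not separate beyond their spread over 3 replicates. Over replicates 2 and 3 alone, Slc3a2 stood apart, with 229.2 and 235.9 RPKM, and the next were Slc7a5 (120.1 and 125.8), Slc38a2 (114.6 and 122.1) and Slc1a5 (113.7 and 115.5). In control cells at day 0 it was Slc38a2 (93.3 ± 6.90) and Slc3a2 (90.9 ± 4.52), which overlapped, then Slc7a5 (60.7 ± 4.54) and Slc1a5 (59.2 ± 4.08), which overlapped as well.

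**Figure D1:**
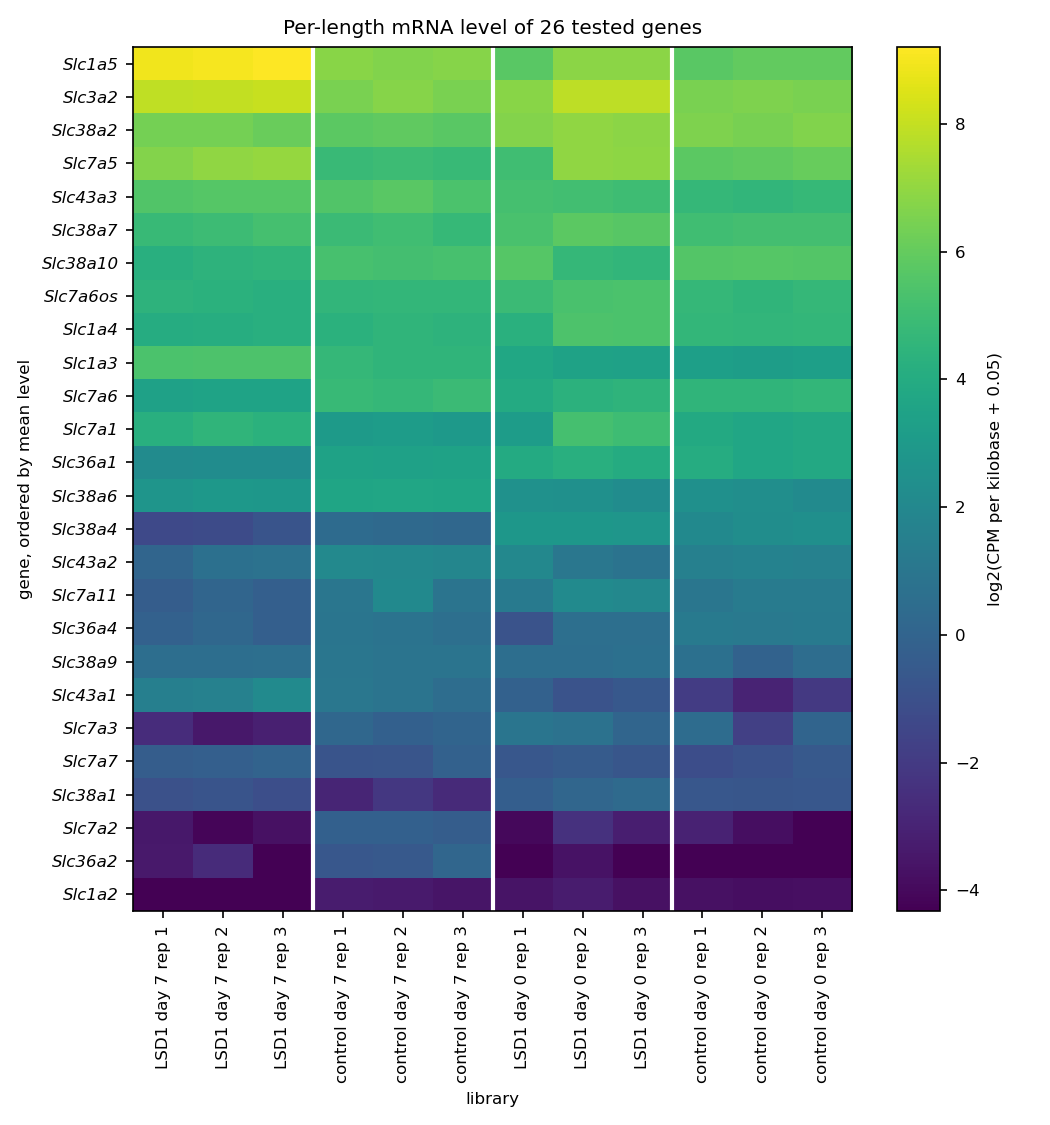
Per-length mRNA level of the 26 tested genes as log2(CPM per kilobase + 0.05) in each of the 12 libraries, with columns ordered by group and rows by mean level. Slc1a5 and Slc3a2 lead in LSD1-labelled cells at day 7 (531.0 and 251.8 RPKM on average), and replicate 1 of the LSD1-labelled day 0 group differs from its other replicates in several rows.

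17 genes were too low to test. 7 of them (Slc1a6, Slc38a3, Slc38a11, Slc7a4, Slc7a9, Slc7a10 and Slc7a12) had 0 counts in all 12 libraries, which allows up to 0.0107 CPM over the libraries together for a count of 0. Among these is Slc7a10, which encodes ASC-1, a transporter of small neutral amino acids described as a surface marker of white fat cells. The other 10 (Slc1a1, Slc1a7, Slc36a1os, Slc36a3, Slc38a5, Slc38a8, Slc7a8, Slc7a13, Slc7a14 and Slc7a15) had 1 to 62 counts over all libraries. Slc7a8, which encodes LAT2, another leucine-carrying light chain, had 23 counts in all, of which 12 were in control cells at day 7. Slc7a13 had 2 counts in LSD1-labelled cells and 1 in control cells at day 7, and 7 in LSD1-labelled cells and 52 in control cells at day 0. It passed the filter when replicate 1 of the labelled day 0 group was left out, and was then lower with the label at day 0 (log2 −3.54, adjusted p = 0.00332, edgeR). Control cells at day 0 had 28, 14 and 10 counts of Slc7a13, against at most 4 in any other library, so it passed the filter through that group. The contrast with that group is therefore not independent of the filter.

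The heavy chain and the LAT1 light chain were both higher in LSD1-labelled cells at day 7. Slc3a2 (chr19:8706882-8723369) stood at 624.7, 637.2 and 680.8 CPM in LSD1-labelled cells at day 7, against 231.9, 278.6 and 226.6 CPM in control cells. Day 0 levels were 283.0, 589.6 and 606.8 CPM in LSD1-labelled cells, against 227.2, 247.3 and 227.0 CPM in control cells. The groups did not overlap at either day, and the lowest of the labelled day 0 libraries, replicate 1, was close to the controls. The log2 fold change of labelled over control was 1.40 at day 7 (SE 0.222, adjusted p = 0.000120, by edgeR's quasi-likelihood test) and 1.08 at day 0 (SE 0.220, adjusted p = 0.00358, edgeR). Between days, Slc3a2 passed in neither LSD1-labelled cells (0.39, adjusted p = 0.124, edgeR) nor control cells (0.07, adjusted p = 0.811, edgeR). Without replicate 1 the day 0 label effect was 1.35 (adjusted p = 4.60e-10, edgeR) and the day effect in LSD1-labelled cells 0.11 (adjusted p = 0.287, edgeR).

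Slc7a5 (chr8:121881146-121907686), the LAT1 light chain, followed another course. It stood at 368.0, 443.9 and 469.9 CPM in LSD1-labelled cells at day 7, against 100.5, 107.6 and 98.61 CPM in control cells, and at 115.2, 442.1 and 422.0 CPM in LSD1-labelled cells at day 0, against 198.6, 211.2 and 230.2 CPM in control cells. At day 7 the lowest labelled library was above every control, whereas at day 0 replicate 1 of the labelled group lay below every control and the other two lay above. Labelled over control, the log2 fold change was 2.06 at day 7 (SE 0.356, adjusted p = 0.000238, edgeR). The day 0 value was 0.61 and did not pass (adjusted p = 0.212, edgeR), and without replicate 1 it was 1.02 and passed (SE 0.101, adjusted p = 6.46e-08, edgeR). In control cells Slc7a5 fell by 1.06 on the log2 scale at day 7 against day 0 (SE 0.347, adjusted p = 0.0231, edgeR), and in LSD1-labelled cells the same contrast was 0.39 and did not pass (adjusted p = 0.326, edgeR), or −0.02 without replicate 1 (adjusted p = 0.892, edgeR). The difference between these day effects, the interaction of label and day, was 1.45 (SE 0.487, adjusted p = 0.0241, edgeR), or 1.05 without replicate 1 (adjusted p = 1.38e-06, edgeR). The fall in control cells did not pass without replicate 1, 2 or 3 of control at day 7 or replicate 2 or 3 of control at day 0 (adjusted p = 0.0502 to 0.0688, edgeR). The interaction did not pass without replicate 3 of either day 7 group (adjusted p = 0.0550 for LSD1-labelled and 0.0508 for control, edgeR). With no filter on low counts, neither the fall (adjusted p = 0.0695, edgeR) nor the interaction (adjusted p = 0.0828, edgeR) passed.

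The remaining light chains moved the other way or did not pass at day 7. Slc7a11 (chr3:50364936-50443613), the cystine transporter xCT, stood at 6.84, 9.19 and 7.35 CPM in LSD1-labelled cells at day 7, against 17.55, 38.46 and 16.48 CPM in control cells, with replicate 2 more than the sum of the other two control libraries. The day 0 values were 20.96, 41.11 and 36.07 CPM in LSD1-labelled cells, against 17.74, 22.59 and 22.10 CPM in control cells, with the groups overlapping through replicate 1. Slc7a11 was lower in labelled than control cells at day 7 (log2 −1.63, SE 0.328, adjusted p = 0.000777, edgeR). It fell with differentiation in LSD1-labelled cells (−2.07, SE 0.330, adjusted p = 9.58e-05, edgeR) and did not pass in control cells (0.21, adjusted p = 0.599, edgeR). The interaction was −2.28 (SE 0.451, adjusted p = 0.00102, edgeR). At day 0 the label effect was 0.65 and did not pass (adjusted p = 0.143, edgeR), and without replicate 1 it was 0.89 and passed (adjusted p = 0.0355, edgeR).

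Slc7a6, which encodes y+LAT2, an exchanger of cationic for neutral amino acids, stood at 40.66, 42.92 and 43.01 CPM in LSD1-labelled cells at day 7, against 102.6, 95.86 and 112.1 CPM in control cells. At day 0 it stood at 56.82, 76.22 and 82.11 CPM in LSD1-labelled cells, against 87.15, 87.60 and 93.18 CPM in control cells. All labelled libraries lay below all controls of the same day, and the test passed at day 7 (log2 −1.29, SE 0.131, adjusted p = 2.19e-06, edgeR) but not at day 0 (−0.32, adjusted p = 0.0887, edgeR). Slc7a6os, a separate gene downstream of Slc7a6 on the other strand and not a transporter, stood at 32.99, 30.11 and 28.57 CPM in LSD1-labelled cells and 35.86, 38.32 and 37.84 CPM in control cells at day 7. The day 0 values were 44.95, 61.12 and 62.61 CPM in LSD1-labelled cells, against 38.51, 35.52 and 38.76 CPM in control cells, and Slc7a6os was higher in the labelled cells at day 0 (log2 0.58, SE 0.129, adjusted p = 0.00581, edgeR). The RefSeq spans of the pair do not overlap. Slc7a7, which encodes y+LAT1, averaged 1.91 ± 0.237 CPM in LSD1-labelled and 1.47 ± 0.422 CPM in control cells at day 7 (SD, n = 3). It averaged 1.40 ± 0.155 CPM in LSD1-labelled and 1.17 ± 0.271 CPM in control cells at day 0, and passed in no comparison.

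Per length, the heavy chain exceeded the sum of its 4 measured light chains (Slc7a5, Slc7a6, Slc7a7 and Slc7a11) in every library of LSD1-labelled cells and of control cells at day 7, while in control cells at day 0 the 2 levels lay within their spread. Slc3a2 averaged 251.8 RPKM in LSD1-labelled cells at day 7, beside a light chain sum of 134.5 RPKM, and 95.5 RPKM in control cells at day 7, beside a sum of 59.9 RPKM. In LSD1-labelled cells at day 0 it averaged 191.7 RPKM beside a sum of 116.1 RPKM, and in control cells at day 0 90.9 RPKM beside a sum of 87.2 RPKM, with replicate 3 at 88.3 RPKM beside a larger sum of 93.3 RPKM. Over replicates 2 and 3 of LSD1-labelled cells at day 0, Slc3a2 averaged 232.6 RPKM beside a sum of 148.8 RPKM. Slc7a5 made up 90.4% of the light chain sum in LSD1-labelled cells and 48.6% in control cells at day 7, and 80.0% in LSD1-labelled cells and 69.6% in control cells at day 0. Replicate 1 of LSD1-labelled cells at day 0 had 64.6%, and its other two replicates 83.2% and 82.0%. These shares are levels of mRNA and say nothing of the protein pairs.

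**Figure D2:**
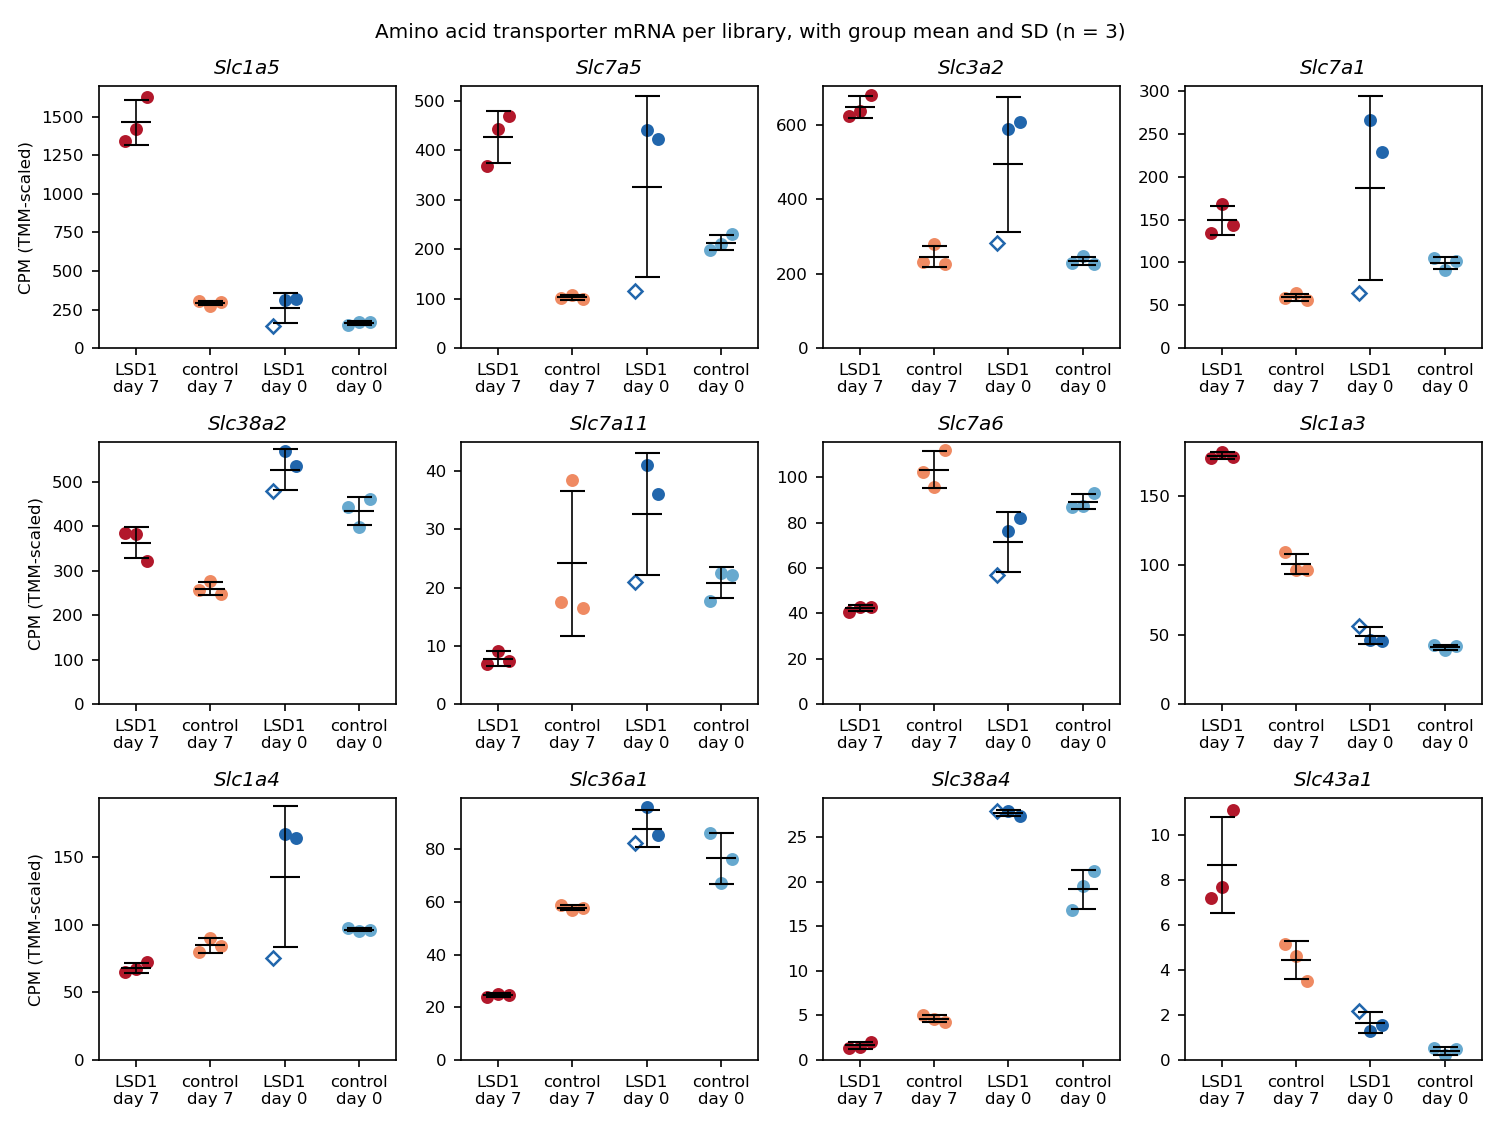
TMM-scaled CPM of 12 genes in each library (points), with group mean and SD (bars, n = 3), and replicate 1 of the LSD1-labelled day 0 group drawn as an open diamond. Slc1a5, Slc7a5, Slc3a2 and Slc7a1 are higher in LSD1-labelled than control cells at day 7, Slc7a11, Slc7a6, Slc36a1 and Slc38a4 are lower, and the open diamond lies apart from its group for Slc1a5, Slc7a5, Slc3a2, Slc7a1 and Slc1a4 among others.

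Of the cationic amino acid transporters, Slc7a1 was higher with the label at day 7, and Slc7a2 and Slc7a3, both low-level genes, were lower. Slc7a1 (chr5:148327410-148399904), encoding the arginine and lysine carrier CAT1, stood at 134.4, 168.3 and 144.3 CPM in LSD1-labelled cells at day 7, against 58.79, 63.94 and 55.57 CPM in control cells. Day 0 levels were 64.19, 266.3 and 229.3 CPM in LSD1-labelled cells, against 105.4, 91.63 and 101.6 CPM in control cells. Replicate 1 was again below every control at day 0 and the other two above. The label effect was 1.33 at day 7 (log2, SE 0.357, adjusted p = 0.00573, edgeR). The day 0 value was 0.91 and did not pass (adjusted p = 0.0777, edgeR), and without replicate 1 it was 1.32 and passed (SE 0.106, adjusted p = 3.21e-09, edgeR). DESeq2 called it with all libraries (0.90, adjusted p = 0.0360). Between days Slc7a1 did not pass in LSD1-labelled cells (−0.32, adjusted p = 0.421, edgeR) or control cells (−0.74, adjusted p = 0.1, edgeR). Without replicate 1 both passed (−0.73 in LSD1-labelled cells, adjusted p = 2.42e-06, and −0.75 in control cells, adjusted p = 1.34e-06, edgeR), with the SE in control cells at 0.0987 without that library and 0.353 with it. All libraries share one estimate of the spread in the fit. Slc7a2, encoding CAT2, averaged 0.197 ± 0.140 CPM in LSD1-labelled cells and 6.21 ± 0.375 CPM in control cells at day 7, against 0.555 ± 0.518 CPM in LSD1-labelled cells and 0.237 ± 0.283 CPM in control cells at day 0 (SD, n = 3). Its label effect at day 7 was −4.96 (SE 0.833, adjusted p = 0.000191, edgeR). Slc7a2 rose with differentiation in control cells (log2 4.68, SE 0.779, adjusted p = 0.000338, edgeR; 6.18 without replicate 1 of control at day 0) and did not pass in LSD1-labelled cells (−1.52, adjusted p = 0.167, or −2.003, adjusted p = 0.0156, without replicate 1, edgeR). Slc7a3, encoding CAT3, averaged 0.178 ± 0.0885 CPM in LSD1-labelled and 2.33 ± 0.340 CPM in control cells at day 7, and 3.65 ± 1.03 CPM in LSD1-labelled and 2.06 ± 1.33 CPM in control cells at day 0. It was lower with the label at day 7 (SE 0.632, adjusted p = 0.000227, log2 −3.69, edgeR) and fell with differentiation in LSD1-labelled cells (−4.33, SE 0.619, adjusted p = 3.68e-05, edgeR).

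Slc1a5 (chr7:16781346-16798274), encoding the glutamine carrier ASCT2, had the largest label effect on the log2 scale among the genes that were higher at day 7. It stood at 1347, 1419 and 1627 CPM in LSD1-labelled cells at day 7, against 302.5, 275.9 and 297.9 CPM in control cells, and at 145.1, 313.6 and 318.5 CPM in LSD1-labelled cells at day 0, against 150.2, 170.3 and 168.9 CPM in control cells. The day 7 groups lay far apart, while at day 0 replicate 1 of the labelled group was below the lowest control. The label effect at day 7 was 2.33 (log2, SE 0.234, adjusted p = 2.27e-06, edgeR), a 5.01-fold difference. The day 0 effect was 0.67 (SE 0.225, adjusted p = 0.0452, edgeR), close to the threshold, and 0.95 without replicate 1 (adjusted p = 7.74e-08, edgeR). Leaving out any 1 of the other libraries ended that call (adjusted p = 0.0588 to 0.170, edgeR). Slc1a5 rose with differentiation in both cell types, by 2.50 in LSD1-labelled cells (SE 0.236, adjusted p = 7.60e-07, edgeR) and by 0.84 in control cells (SE 0.226, adjusted p = 0.00817, edgeR). The interaction was 1.66 (SE 0.319, adjusted p = 0.000835, edgeR). Without replicate 1 the rise in LSD1-labelled cells was 2.21 and the interaction 1.37.

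The other Slc1 genes differed from each other. Slc1a3, encoding the glutamate carrier GLAST, stood at 177.1, 181.6 and 177.8 CPM in LSD1-labelled cells and 109.4, 96.74 and 96.19 CPM in control cells at day 7. At day 0 it stood at 56.24, 46.16 and 45.60 CPM in LSD1-labelled cells, against 42.20, 38.87 and 41.77 CPM in control cells. It rose with differentiation by 1.86 in LSD1-labelled cells (log2, SE 0.109, adjusted p = 7.20e-09, edgeR) and by 1.30 in control cells (SE 0.107, adjusted p = 9.55e-07, edgeR), and was higher with the label at day 7 (0.83, SE 0.106, adjusted p = 1.79e-05, edgeR). Slc1a4, encoding ASCT1, a carrier of alanine, serine and cysteine, stood at 65.09, 66.98 and 72.20 CPM in LSD1-labelled cells and 79.37, 90.39 and 83.91 CPM in control cells at day 7. Day 0 levels were 75.32, 166.8 and 163.7 CPM in LSD1-labelled cells, against 97.16, 95.05 and 95.84 CPM in control cells. It fell with differentiation in LSD1-labelled cells (−0.99, SE 0.223, adjusted p = 0.00149, edgeR; −1.28 without replicate 1), and its label effect at day 0 passed without replicate 1 (0.78, adjusted p = 4.17e-07, edgeR) and not with it (0.50, adjusted p = 0.120, edgeR). At day 7 the label effect was −0.31, passing without replicate 1 (adjusted p = 0.00202, edgeR) and not with it (adjusted p = 0.235, edgeR). Slc1a2, encoding the glutamate carrier GLT-1, had 0 counts in LSD1-labelled cells and 36 in control cells at day 7, which is at least 10-fold lower in CPM when the group's 0 is set to 3 counts. At day 0 it had 34 counts in LSD1-labelled cells, so day 7 was at least 8.07-fold lower, and it averaged 0.278 ± 0.0362 CPM in control cells. Control cells at day 7 had 14, 12 and 10 counts of Slc1a2. At day 0 LSD1-labelled cells had 9, 17 and 8, and control cells 8, 6 and 7. Slc1a2 passed the filter through control cells at day 7, so contrasts with that group are not independent of the filter.

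In the Slc38 family, Slc38a1, Slc38a2 and Slc38a4 lie beside one another on chromosome 15 (chr15:96571418-96642913, chr15:96687392-96699728 and chr15:96994823-97055956), all on the minus strand, and moved differently with the label at day 7. Slc38a2, encoding the glutamine and alanine carrier SNAT2, stood at 383.5, 382.4 and 321.9 CPM in LSD1-labelled cells and 256.3, 276.1 and 246.6 CPM in control cells at day 7. The day 0 values were 478.4, 568.8 and 534.0 CPM in LSD1-labelled cells, against 442.9, 398.8 and 461.3 CPM in control cells. All labelled libraries lay above all controls of the same day. Slc38a2 was higher with the label at day 7 (log2 0.48, SE 0.110, adjusted p = 0.00198, edgeR). At day 0 its label effect was 0.28 (adjusted p = 0.0815, edgeR), or 0.34 without replicate 1 (adjusted p = 0.00646, edgeR). It fell with differentiation in LSD1-labelled cells (−0.54, SE 0.110, adjusted p = 0.000711, edgeR) and in control cells (−0.74, SE 0.111, adjusted p = 0.000139, edgeR). Slc38a1, encoding SNAT1, was a low-level gene at 3.53, 3.98 and 3.26 CPM in LSD1-labelled cells and 0.624, 1.39 and 0.791 CPM in control cells at day 7, and at 5.90, 8.27 and 9.42 CPM in LSD1-labelled cells and 4.59, 4.31 and 4.52 CPM in control cells at day 0. It was higher with the label at day 7 (1.94, SE 0.289, adjusted p = 6.80e-05, edgeR) and at day 0 (0.81, SE 0.246, adjusted p = 0.0281, edgeR), with no overlap at either day. The Slc38a1 day 0 call was lost without replicate 2 or 3 of LSD1-labelled cells or any 1 control library at day 0 (adjusted p = 0.0707 to 0.115, edgeR). It fell with differentiation by 1.13 in LSD1-labelled cells (SE 0.252, adjusted p = 0.00137, edgeR) and by 2.26 in control cells (SE 0.284, adjusted p = 3.47e-05, edgeR).

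Slc38a4, an imprinted gene encoding SNAT4, stood at 1.38, 1.498 and 2.07 CPM in LSD1-labelled cells and 5.08, 4.63 and 4.25 CPM in control cells at day 7. At day 0 it stood at 27.88, 27.91 and 27.34 CPM in LSD1-labelled cells, against 16.80, 19.53 and 21.14 CPM in control cells. The label effect therefore had opposite signs, higher at day 0 (log2 0.53, SE 0.149, adjusted p = 0.0197, edgeR) and lower at day 7 (−1.49, SE 0.181, adjusted p = 1.18e-05, edgeR), and the interaction was −2.02 (SE 0.235, adjusted p = 1.51e-05, edgeR). Slc38a4 fell by 4.06 with differentiation in LSD1-labelled cells (SE 0.181, adjusted p = 6.39e-10, edgeR) and by 2.04 in control cells (SE 0.160, adjusted p = 5.71e-07, edgeR). Replicate 1 was not apart from its group for this gene. The day 0 call of Slc38a4 was lost without replicate 1 (adjusted p = 0.0903, edgeR) or replicate 2 (adjusted p = 0.0556, edgeR) of the day 0 controls.

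Slc38a6 stood at 19.64, 21.79 and 21.27 CPM in LSD1-labelled cells and 37.01, 37.99 and 36.63 CPM in control cells at day 7, against 17.11, 15.96 and 13.87 CPM in LSD1-labelled cells and 16.02, 14.94 and 12.85 CPM in control cells at day 0. It rose with differentiation in control cells (log2 1.35, SE 0.126, adjusted p = 2.74e-06, edgeR) and by less in LSD1-labelled cells (0.42, SE 0.125, adjusted p = 0.00928, edgeR), and the interaction was −0.93 (adjusted p = 0.000741, edgeR). Slc38a7, a lysosomal glutamine carrier, averaged 105.6 ± 16.5 CPM in LSD1-labelled and 98.0 ± 10.1 CPM in control cells at day 7, and 160.6 ± 26.9 CPM in LSD1-labelled and 114.9 ± 4.19 CPM in control cells at day 0. It was higher with the label at day 0 (0.48, SE 0.143, adjusted p = 0.0259, edgeR), a call lost without replicate 2 or 3 of LSD1-labelled cells or any 1 control library at day 0 (adjusted p = 0.0609 to 0.0917, edgeR). Slc38a9, a lysosomal arginine sensor of mTORC1, averaged 12.9 ± 0.361 CPM in LSD1-labelled and 16.4 ± 0.715 CPM in control cells at day 7, and 13.2 ± 0.431 CPM in LSD1-labelled and 11.3 ± 2.80 CPM in control cells at day 0. It rose with differentiation in control cells (0.53, SE 0.167, adjusted p = 0.0182, edgeR), but did not pass without replicate 1 of control at day 7 (adjusted p = 0.0622, edgeR) or replicate 2 of control at day 0 (0.35, adjusted p = 0.0633, edgeR). Slc38a10 averaged 96.0 ± 8.88 CPM in LSD1-labelled and 172.4 ± 8.55 CPM in control cells at day 7, and 153.6 ± 68.3 CPM in LSD1-labelled and 221.8 ± 5.37 CPM in control cells at day 0. It was lower with the label at day 7 (−0.84, SE 0.222, adjusted p = 0.00488, edgeR), and at day 0 it passed without replicate 1 (−0.96, adjusted p = 8.52e-08, edgeR) and not with it (−0.53, adjusted p = 0.0964, edgeR). Slc38a10 fell with differentiation in LSD1-labelled cells by 0.68 (adjusted p = 0.0150, edgeR), or by 0.25 without replicate 1 at day 0 (adjusted p = 0.0216, edgeR), and did not pass without replicate 1 at day 7 (adjusted p = 0.0611, edgeR).

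The tested genes of the Slc36 family were called lower in LSD1-labelled cells at day 7, with limits for Slc36a4 and Slc36a2 given below. Slc36a1, encoding PAT1 of the lysosome, stood at 23.78, 25.25 and 24.64 CPM in LSD1-labelled cells and 58.84, 57.04 and 57.69 CPM in control cells at day 7, against 82.57, 95.93 and 85.32 CPM in LSD1-labelled cells and 86.32, 67.22 and 76.25 CPM in control cells at day 0. The day 7 groups were apart and the day 0 groups overlapped. It was lower with the label at day 7 (log2 −1.24, SE 0.112, adjusted p = 8.24e-07, edgeR), and it fell with differentiation by 1.84 in LSD1-labelled cells (SE 0.113, adjusted p = 1.20e-08, edgeR) and by 0.40 in control cells (SE 0.109, adjusted p = 0.00827, edgeR). Slc36a4 averaged 5.15 ± 0.748 CPM in LSD1-labelled and 9.58 ± 1.09 CPM in control cells at day 7, and 6.54 ± 3.22 CPM in LSD1-labelled and 12.4 ± 0.361 CPM in control cells at day 0. It was lower with the label at both days, by 0.89 at day 7 (adjusted p = 0.0244, edgeR) and by 0.91 at day 0 (adjusted p = 0.0433, edgeR), with the day 0 log2 fold change at −0.56 without replicate 1 (adjusted p = 0.00616, edgeR). The day 0 call was lost without any 1 day 7 library or any 1 day 0 control library (adjusted p = 0.0546 to 0.106, edgeR). The day 7 call was lost without replicate 1 or 3 of LSD1-labelled cells or replicate 1 or 2 of control cells at day 7 (adjusted p = 0.0567 to 0.0830, edgeR).

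Slc36a2, encoding PAT2, described as a surface marker of brown and beige fat cells, was near the detection limit outside control cells at day 7. It stood at 0.110, 0.258 and 0.00 CPM in LSD1-labelled cells at day 7, against 1.43, 1.53 and 2.54 CPM in control cells, which are 7 counts against 126. At day 0 it had 2 counts in LSD1-labelled cells and 0 in control cells. Control cells at day 7 had 32, 33 and 61 counts, against at most 5 in any other library, so Slc36a2 passed the filter through that group alone. Contrasts of Slc36a2 with that group are therefore not independent of the filter. Slc36a2 was lower with the label at day 7 (log2 −3.84, SE 0.739, adjusted p = 0.000889, edgeR, or −4.98 without replicate 2 of LSD1-labelled cells at day 7). In control cells it was at least 46.6-fold higher at day 7 than at day 0, with the 0 of day 0 set to 3 counts. The interaction passed without replicate 1 (adjusted p = 0.0263, edgeR) and not with it (adjusted p = 0.0547, edgeR). DESeq2 called it with all libraries (adjusted p = 0.00800), as did edgeR with no filter on low counts (adjusted p = 0.0435).

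The Slc43 genes carry large neutral amino acids without a heavy chain in the case of Slc43a1 (LAT3) and Slc43a2 (LAT4), and purine bases in the case of Slc43a3. Slc43a1 stood at 7.17, 7.70 and 11.08 CPM in LSD1-labelled cells and 5.17, 4.63 and 3.496 CPM in control cells at day 7, and at 2.17, 1.29 and 1.53 CPM in LSD1-labelled cells and 0.550, 0.201 and 0.476 CPM in control cells at day 0. The groups did not overlap at either day, with label effects of 0.97 at day 7 (log2, SE 0.285, adjusted p = 0.00989, edgeR) and 2.00 at day 0 (SE 0.368, adjusted p = 0.00185, edgeR). Without replicate 3 of LSD1-labelled cells at day 7, the Slc43a1 day 7 value was 0.75 and did not pass (adjusted p = 0.0579, edgeR). It rose with differentiation in LSD1-labelled cells (2.38, SE 0.304, adjusted p = 1.31e-05, edgeR) and in control cells (3.42, SE 0.356, adjusted p = 7.12e-06, edgeR). Slc43a2 stood at 7.34, 10.95 and 11.85 CPM in LSD1-labelled cells and 29.40, 27.89 and 26.39 CPM in control cells at day 7, and at 28.20, 14.13 and 12.27 CPM in LSD1-labelled cells and 20.73, 22.19 and 21.38 CPM in control cells at day 0. It was lower with the label at day 7 (−1.47, SE 0.273, adjusted p = 0.000416, edgeR). At day 0, where replicate 1 lay above the controls and the others below, the value was −0.24 (adjusted p = 0.546, edgeR) with all libraries and −0.70 (adjusted p = 0.000844, edgeR) without replicate 1. Slc43a2 fell with differentiation in LSD1-labelled cells by 0.85 (adjusted p = 0.0129, edgeR), or by 0.39 without that library (adjusted p = 0.0317, edgeR), and did not pass without replicate 1 at day 7 (adjusted p = 0.0639, edgeR). Slc43a3 stood at 118.4, 128.7 and 130.4 CPM in LSD1-labelled cells and 121.2, 136.9 and 108.3 CPM in control cells at day 7, and at 98.24, 88.20 and 82.03 CPM in LSD1-labelled cells and 66.77, 62.06 and 68.71 CPM in control cells at day 0. It rose with differentiation in LSD1-labelled cells (0.49, SE 0.111, adjusted p = 0.00151, edgeR) and in control cells (0.89, SE 0.112, adjusted p = 3.42e-05, edgeR). Slc43a3 was higher with the label at day 0 (0.44, SE 0.111, adjusted p = 0.0116, edgeR), a call lost without replicate 2 of the day 0 controls (adjusted p = 0.0530, edgeR).

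Over the families, more genes were lower than higher with the label at day 7, and more were higher than lower at day 0. With the label at day 7, 8 of the 26 tested genes were higher and 12 lower, where 63.6% of all 13356 tested genes passed (30.2% higher and 33.4% lower), and the median log2 fold change was −0.33, against −0.05 over all genes. The 8 higher genes were Slc1a5, Slc7a5, Slc38a1, Slc3a2, Slc7a1, Slc43a1, Slc1a3 and Slc38a2. Slc36a2, counted among the lower here and among the higher with day in control cells, passed the filter only through control cells at day 7. Slc1a2, counted among the lower here and for the interaction below, passed the filter through the same group. At day 0, 8 were higher and 1 lower, where 25.8% of all genes passed (12.8% higher and 13% lower), with a median of 0.51, against 0.00 over all genes. Without replicate 1 of the labelled day 0 group, 14 of 27 tested genes were higher and 4 lower at day 0, where 48.6% of all genes passed (22.6% higher and 26% lower), and 8 were higher and 15 lower at day 7, where 73.7% passed (35.4% higher and 38.3% lower).

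Between days in LSD1-labelled cells, 5 of the 26 genes were higher and 13 lower, where 69.8% of all genes passed (32.6% higher and 37.2% lower), with a median of −0.57, against −0.07 over all genes. In control cells, 8 were higher and 5 lower, where 48.3% of all genes passed (23.7% higher and 24.6% lower), with a median of 0.20, against −0.01 over all genes. The interaction was higher for 4 and lower for 12, where 51.9% of all genes passed (23.9% higher and 28.1% lower), with a median of −0.69, against −0.06. Without replicate 1 the counts were 5 higher and 16 lower in LSD1-labelled cells (of all genes 76.2% passed, 36.5% higher and 39.6% lower). They were 10 higher and 9 lower in control cells (63.2%, 31% higher and 32.1% lower), and 4 higher and 15 lower for the interaction (64.7%, 31% higher and 33.7% lower). Calls gained without it and not given above were Slc36a4 (lower with day in both cell types), Slc38a10 (lower) and Slc43a2 and Slc7a6 (higher) with day in control cells, Slc38a9 and Slc7a6os (lower with the label at day 7), Slc7a2 (higher with the label at day 0), and the interactions of Slc38a7 and Slc38a9 (lower). Slc7a13, which did not pass the filter in the main fit, was then lower with day in control cells (log2 −5.11, adjusted p = 0.000229, edgeR). That call contrasts the day 0 controls, through which Slc7a13 passed the filter, and is not independent of the filter. The comparisons share libraries and are not independent of each other.

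**Figure D3:**
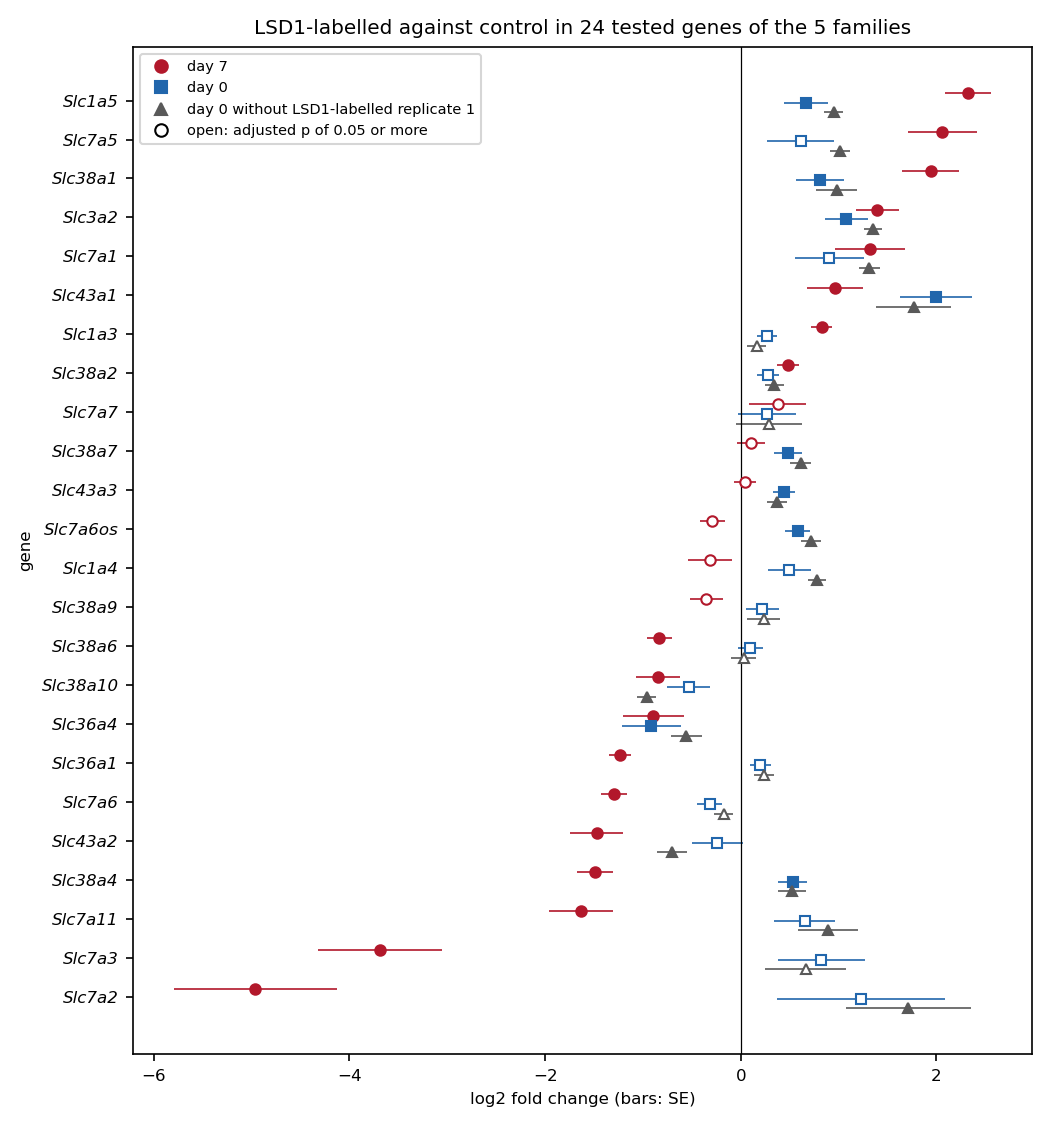
Log2 fold change of LSD1-labelled over control cells at day 7 (circles), at day 0 (squares) and at day 0 without replicate 1 of the labelled group (triangles), with SE bars and open symbols where the test did not pass; Slc1a2 and Slc36a2, which have a group at or near 0 counts, are left out. Slc1a5, Slc7a5 and Slc38a1 have the highest day 7 values (2.33, 2.06 and 1.94), and by this test Slc7a5 and Slc7a1 pass at day 0 without the library and not with it.

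**Figure D4:**
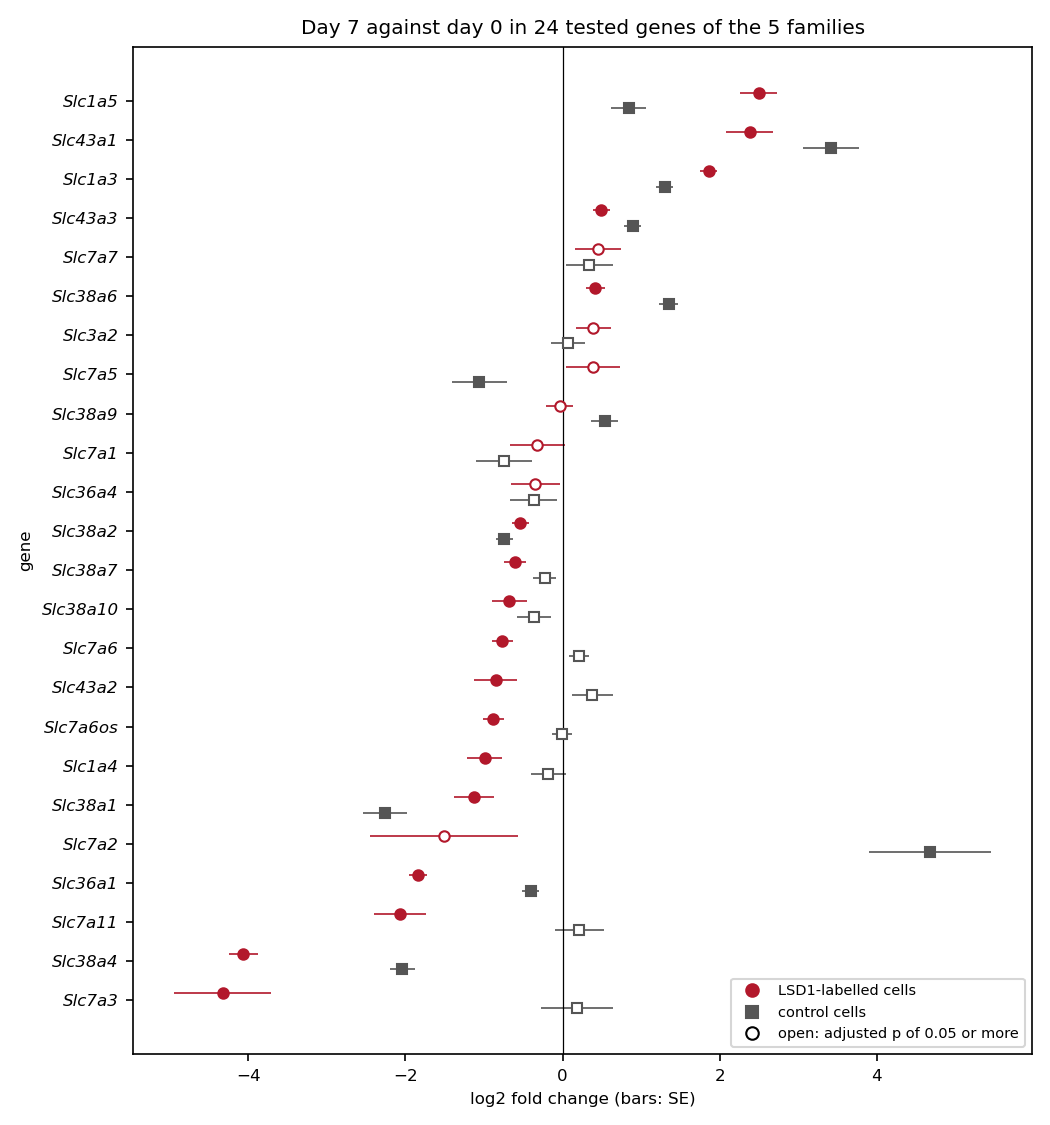
Log2 fold change of day 7 over day 0 in LSD1-labelled cells (circles) and control cells (squares), with SE bars and open symbols where the test did not pass, for the same 24 genes. Slc1a5 has the highest value in LSD1-labelled cells (2.50) and 0.84 in control cells, and Slc7a11 stands at −2.07 in LSD1-labelled cells and 0.21 in control cells.

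Most of 23 genes of the amino acid response around the kinase GCN2 and ATF4, a list without transporters, were higher with the label at day 7. Atf4 itself stood at 825.3, 788.3 and 823.2 CPM in LSD1-labelled cells and 195.0, 256.8 and 220.3 CPM in control cells at day 7, and at 381.2, 571.5 and 575.8 CPM in LSD1-labelled cells and 345.2, 372.4 and 342.7 CPM in control cells at day 0. Its label effect was 1.86 at day 7 (log2, SE 0.156, adjusted p = 4.19e-07, edgeR) and 0.53 at day 0 (SE 0.151, adjusted p = 0.0221, edgeR). Of the 23 genes, 19 were higher and 1 lower with the label at day 7 (median 1.65, against −0.05 over all genes), where 63.6% of all genes passed (30.2% higher and 33.4% lower). At day 0, 13 were higher and 0 lower (median 0.94, against 0.00), where 25.8% of all genes passed (12.8% higher and 13% lower). Without replicate 1, 18 were higher and 0 lower at day 0, where 48.6% of all genes passed. With differentiation, 16 were higher and 3 lower in LSD1-labelled cells (69.8% of all genes passed), with a median of 1.08, or of 0.68 without replicate 1. In control cells 8 were higher and 8 lower (48.3% of all genes passed). At day 7, Psat1 of serine synthesis averaged 772.7 CPM in LSD1-labelled and 195.1 CPM in control cells. Trib3, a known ATF4 target, averaged 490.4 CPM in LSD1-labelled and 39.1 CPM in control cells, and Atf5, a relative of ATF4, 1060 CPM in LSD1-labelled and 189.4 CPM in control cells. Eif2ak4, which encodes GCN2, was the gene that was lower, at 25.5 CPM in LSD1-labelled and 36.2 CPM in control cells.

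Further lists gave the surroundings of transport. Of 15 tested carriers outside the 5 families, such as mitochondrial and Slc6 carriers, 8 were higher and 4 lower with the label at day 7. Of all tested genes, 30.2% were higher and 33.4% lower there, which holds beside each day 7 count of these lists. Among them Slc25a22, a mitochondrial glutamate carrier, averaged 279.4 CPM in LSD1-labelled and 65.0 CPM in control cells, and Slc6a6, the taurine carrier, 119.4 CPM in LSD1-labelled and 355.8 CPM in control cells. Of 24 genes of branched-chain amino acid breakdown, 19 were higher and 2 lower with the label at day 7 (median 1.17), and 2 were higher and 4 lower at day 0 (median 0.05), where 25.8% of all genes passed, or 5 higher and 5 lower without replicate 1, where 48.6% did. Bcat2, the mitochondrial aminotransferase, averaged 936.8 CPM in LSD1-labelled and 238.4 CPM in control cells at day 7, and Bcat1, its cytosolic counterpart, 5.80 CPM in LSD1-labelled and 23.4 CPM in control cells. Of 17 tested enzymes of glutamine, glutamate, proline and arginine, 10 were higher and 2 lower with the label at day 7, with Prodh, which degrades proline, at 15.5 CPM in LSD1-labelled and 1.63 CPM in control cells. Ass1 of arginine synthesis stood at 1.42 CPM in LSD1-labelled and 8.56 CPM in control cells.

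Of 28 tested genes of amino acid sensing by mTORC1, 13 were higher and 4 lower with the label at day 7. Mlst8, a subunit of mTORC1, averaged 71.4 CPM in LSD1-labelled and 41.4 CPM in control cells, and Sesn3, a sestrin, 11.5 CPM in LSD1-labelled and 44.1 CPM in control cells. Of 16 genes of glutathione synthesis and NRF2 (Nfe2l2) targets, which surround the cystine carrier Slc7a11, 7 were higher and 4 lower. Oplah, of glutathione turnover, averaged 106.4 CPM in LSD1-labelled and 40.6 CPM in control cells, and Nqo1, an NRF2 target, 9.01 CPM in LSD1-labelled and 59.2 CPM in control cells. The lists were not tested as sets, and the counts at day 7 stand beside the 63.6% of all genes that passed there (30.2% higher and 33.4% lower).

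The peak lists give the authors' score for each peak, used here within a list. A peak counted where it came within 1 kb of a RefSeq start. In the LSD1 list of LSD1-labelled cells at day 7, 18 of the 26 tested genes (69.2%) had such a peak, against 80.9% of all tested genes with a start site, and in the list of control cells at day 7 14 had one (53.8%, against 59.8%). At day 0 the numbers were 14 in LSD1-labelled cells (53.8%, against 71.4%) and 4 in control cells (15.4%, against 23.0%). The LSD1 lists held 27221 peaks in LSD1-labelled and 8303 in control cells at day 7, and 13997 in LSD1-labelled and 3024 in control cells at day 0, and the depth of the ChIP-seq libraries was not analysed here, so the numbers were not compared between lists. The 17 untested genes had no such peak in any list.

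Slc38a2, Slc7a1, Slc7a6 and Slc7a6os had a peak at a start in all 4 LSD1 lists. In the list of LSD1-labelled cells at day 7, Slc1a5 and Slc38a2 had the highest scores among the transporter genes, 3100 each, with the peaks at chr7:16779795-16785341 and chr15:96698228-96700672. Slc7a11 had a peak in the LSD1-labelled day 0 list alone (chr3:50443049-50444006, score 50.84), which covers both TGATGNAA matches printed above and lies near the lowest score deposited, 50. Genes that were higher or lower with the label at day 7 both had peaks in the LSD1-labelled day 7 list, such as Slc7a5 and Slc7a1 among the higher and Slc36a1, Slc43a2 and Slc7a6 among the lower. Slc38a1, Slc38a4 and Slc43a1 had none at a start in any of the 6 lists. Nrf1 peaks were at the start of Slc3a2 at day 7 (chr19:8722886-8723940) and at day 0 (chr19:8723132-8723811), and of Slc38a7 at day 0 (chr8:95852109-95853034). These are 1 of the 26 genes at day 7 (3.85%, against 13.1% of all tested genes) and 2 at day 0 (7.69%, against 12.1%). Slc3a2 was higher with the label at both days, and Nrf1 itself passed at neither (log2 0.27 at day 7, adjusted p = 0.116, and 0.19 at day 0, adjusted p = 0.359, edgeR).

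**Figure D5:**
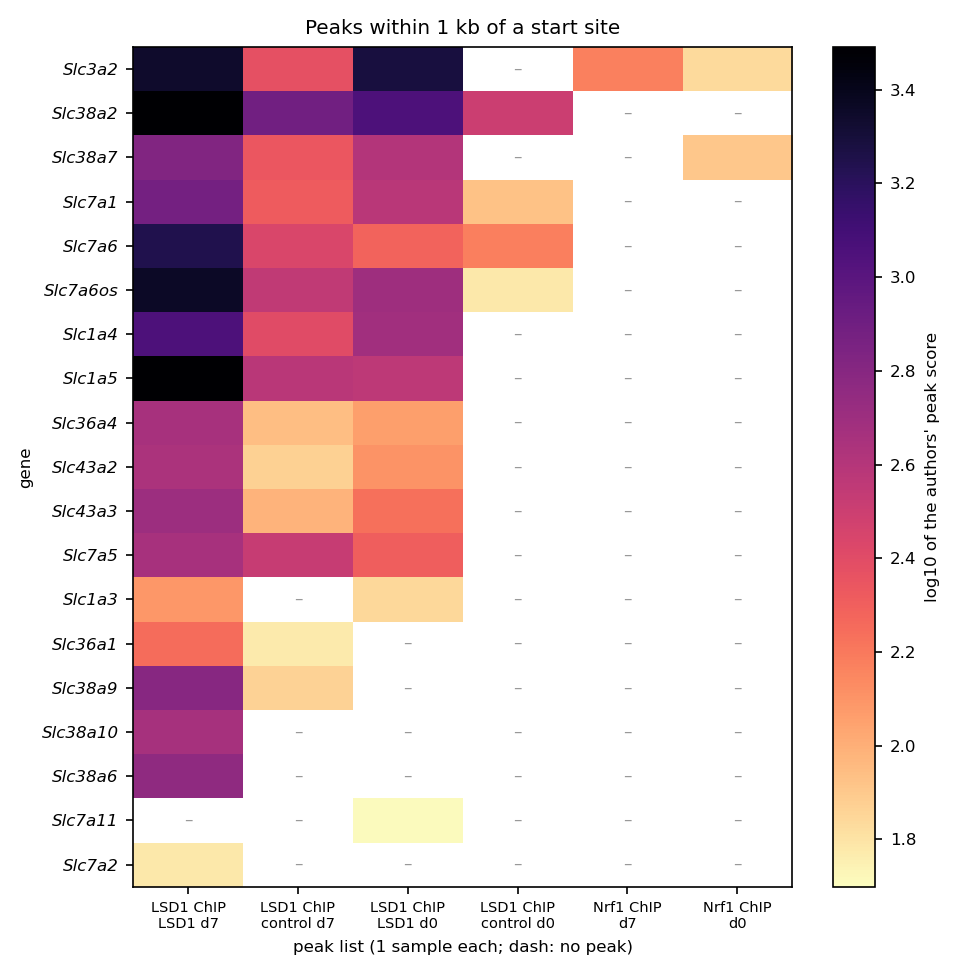
Genes with a peak within 1 kb of a start site (rows) in the 4 LSD1 and 2 Nrf1 peak lists (columns, 1 sample each), coloured by log10 of the authors' peak score, with a dash where there was none. Slc38a2, Slc7a1, Slc7a6 and Slc7a6os have a peak in all 4 LSD1 lists, and Slc3a2 has one in both Nrf1 lists.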

How the data were processed

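RNA was measured in 12 libraries and ChIP-seq peaks in 6 samples. The count files hold raw read counts per RefSeq transcript as deposited, and the peak lists hold the authors' peak score as deposited, with a lowest value of 50. For RNA, the submitters' processing notes name TopHat2 (version 2), DESeq (1.8.3), HOMER and edgeR, and for ChIP-seq MACS (1.41) and Bowtie2, on mm10 and with no stated role. Counting by strand is not given in the sources used here. Of 30521 transcript rows, 29140 were named from RefSeq and 181 from GENCODE tables, and 1200 stayed unnamed (0.896% of counts). Of each gene the transcript of highest mean count was kept, giving 24346 features. RPKM used RefSeq transcript lengths. Counting floors cover counting error only.

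Counts were tested in R 4.3.3 with edgeR 4.0.16: filterByExpr, TMM, one robust quasi-likelihood model with a mean per group, fitted to all 12 libraries, two-sided, with Benjamini-Hochberg adjustment over 13356 genes and a threshold of 0.05. The script was tested on simulated data. Alternatives used DESeq2 1.42.0, other scaling, no filter, summed transcripts, the replicate block, fits to the groups compared, and 12 fits without 1 library each. Peaks were matched to RefSeq starts on GRCm38.p6, with 0 peaks beyond a chromosome end.

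The members and gene lists were chosen with earlier results of these data known. Every tested member is named with its levels. Values of every library are given for 13 genes picked for their role where they pass the filter, and for the 4 largest rises and 4 largest falls per comparison among called members of at least 10 CPM on average. Of other lists, at most 3 genes per direction were named by smallest adjusted p, and Kdm1a, Nrf1 and Atf4 always.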

Additional observations from a re-analysis of the deposited data

Results flagged for a closer look

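The day effect differed between LSD1-labelled and control cells, by the interaction test itself (edgeR, adjusted p under 0.05), in 16 of the 26 tested genes, where 51.9% of all genes passed. The values are the log2 day effect in LSD1-labelled cells minus that in control cells. It was higher in LSD1-labelled cells for 4 genes: Slc1a5 (1.66), Slc7a5 (1.45), Slc38a1 (1.13) and Slc1a3 (0.56). Among the light chains and their neighbour it was lower for Slc7a11 (−2.28), Slc7a6 (−0.98) and Slc7a6os (−0.87). Among cationic carriers it was lower for Slc7a2 (−6.19) and Slc7a3 (−4.51), both under 10 CPM in every library. In the other families it was lower for Slc38a4 (−2.02), Slc36a1 (−1.44), Slc43a2 (−1.23), Slc38a6 (−0.93), Slc1a4 (−0.81) and Slc43a3 (−0.40). Slc1a2 (−7.25) has a group at 0 counts, so that its fitted value is no bound. It passed the filter through control cells at day 7, so its call is not independent of the filter. The calls for Slc1a4 and Slc43a3 lay near the threshold (adjusted p = 0.0456 and 0.0485, edgeR). Without replicate 1 of the LSD1-labelled day 0 group, all 16 passed, with Slc1a4 at −1.09, Slc43a3 at −0.33 and Slc43a2 at −0.77. Leaving out any 1 other library ended the call of Slc1a4 (adjusted p = 0.0641 to 0.111, edgeR), and 9 of the other libraries did so for Slc43a3 (adjusted p = 0.0609 to 0.140, edgeR). Slc38a1 lost its call without replicate 2 of LSD1-labelled cells or replicate 1 or 3 of control cells at day 7 (adjusted p = 0.0586 to 0.0681, edgeR). Slc7a5 lost it without replicate 3 of either day 7 group (adjusted p = 0.0550 for LSD1-labelled and 0.0508 for control, edgeR) and with no filter on low counts (adjusted p = 0.0828, edgeR), and stood at 1.05 without replicate 1 of the LSD1-labelled day 0 group. Slc7a2 ranged from −7.70 without replicate 1 of control at day 0 to −5.22 without replicate 2 of LSD1-labelled cells at day 0.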

How the results depend on the processing

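Over all alternatives and single genes, 2175 of 2308 values kept their side of the threshold, 92 no longer passed and 41 passed newly. 20 values of 12 results changed sign, each without passing in either setting, and 0 did so after passing in one. The calls that depended most on the setting were the day 0 label effect of Slc1a5 (lost in 14 of 18 alternatives, adjusted p up to 0.170, edgeR) and of Slc36a4 (lost in 12 of 18), and the interactions of Slc1a4 (14 of 17) and Slc43a3 (13 of 17). In fits to only the groups compared, 9 members were lower between days in control cells (32.1% of all genes), and 5 were higher and 0 lower with the label at day 0 (7.77% and 6.69% of all genes). There the day 0 calls of Slc7a6os (adjusted p = 0.0548, edgeR) and Slc38a7 (0.0723) and the day calls of Slc38a6 (0.0570), Slc43a2 (0.0624) and Slc38a10 (0.0669) in LSD1-labelled cells were lost. With the replicate block, 7 members were higher and 0 lower with the label at day 0 (10.8% and 11.4% of all genes). The counts were 5 and 13 between days in LSD1-labelled cells (31.9% and 35.9% of all genes) and 8 and 5 in control cells (22.1% and 23%). They were 8 and 12 with the label at day 7 (28.7% and 32.4%) and 4 and 10 for the interaction (22.7% and 26.3%). Same-numbered libraries correlated at −0.249 to 0.114 in their deviations from the group means. Deviations within a group of 3 sum to 0, so these values cannot settle whether the numbers pair the libraries. Leaving out 1 library at a time gave 3 to 14 members higher and 0 to 4 lower with the label at day 0, where 7.82% to 22.6% of all genes were higher and 8.17% to 26% lower. It gave 7 to 8 higher and 11 to 15 lower at day 7 (26% to 35.4% and 29.7% to 38.3% of all genes), and 5 to 6 and 11 to 16 between days in LSD1-labelled cells (29.5% to 36.5% and 34.6% to 39.6%). It gave 7 to 10 higher and 4 to 9 lower in control cells (18.7% to 31.0% and 19.8% to 32.1%), and 2 to 4 and 10 to 15 for the interaction (20.8% to 31.0% and 25.3% to 33.7%). The upper counts at day 0 came without replicate 1 of the LSD1-labelled group. With peak scores of 100 or more, 9 members had an LSD1 peak at a start in control cells at day 7, 2 in control cells at day 0, and 0 an Nrf1 peak at day 0. The share of all tested genes with a peak at that score was not counted, so these numbers describe the members only. The cause of these changes was not tested. Low counts limit Slc1a2, Slc36a2, Slc7a2, Slc7a3, Slc7a7 and Slc38a1.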
